A study of Mus musculus with 8 samples.

Results

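The genes Cish, Socs1, Socs2, Socs3, Socs5, Socs6, Pias1 and Pias3, which encode inhibitors of STAT signalling, were examined for chromatin accessibility in 4 mouse melanoma cell lines. A region of the deposited count table was taken as theirs if it lay inside the gene, or within 50 kb of it with that gene holding the nearest end of any protein-coding gene. This gave 71 of the 148664 regions in the table: 18 at Socs6, 15 at Socs3, 13 at Socs5, 10 at Socs2, 5 at Socs1, 5 at Pias1, 3 at Cish and 2 at Pias3. A filter on low counts left 69 of them for testing, and both regions it removed were at Socs6. The assay was ATAC-seq: Tn5 transposase cuts open DNA and tags the ends for sequencing. Lines 112 and 113 were labelled STAT3 knockout and lines 119 and 73 wild type, with 2 replicate libraries per line from 50000 cells each. The protocol names the genotypes Stat3∆ and Stat3fl, so the wild-type lines would carry the floxed, undeleted gene. The labels name no Cre driver and no treatment, and the lines were grown from lymph node cell suspensions of mice with skin melanoma. The protocol calls each line a pool while the labels call it a clone, and each genotype is represented by 2 lines only. Each title carries a p number as well (p18 in 112, p44 in 113, p14 in 119, p68 in 73), which the labels leave unexplained. It differs between all 4 lines and cannot be told apart from the line. Nothing says that replicates came from separate cultures, so p-values between lines measure only the spread between these libraries.

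Cytokine receptors activate Janus kinases, which phosphorylate STAT transcription factors. STATs then enter the nucleus and switch on genes that include their own inhibitors. CIS (encoded by Cish) and the SOCS proteins carry an SH2 domain and a SOCS box, and they block the receptor or kinase or mark it for ubiquitination. SOCS3 is the classical feedback inhibitor of STAT3 downstream of gp130 receptors, SOCS1 restrains interferon signalling, and CIS and SOCS2 are induced through STAT5. SOCS5 and SOCS6 are less tied to cytokine induction and also act on receptor tyrosine kinases. PIAS proteins are nuclear SUMO ligases. PIAS3 binds STAT3, and the PIAS genes are not part of the feedback loop in the way that SOCS genes are.

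The promoters of Cish, Socs3, Socs1 and Pias1 are shown because STATs bind the palindrome TTCNNNGAA, which both strands share, and these promoters differ in it. They are RefSeq sequences of GRCm38.p6, from 250 bases before to 50 bases after the annotated start, 5′ to 3′ on the strand of the gene, with matches to TTCNNNGAA in capitals. Of the 8 genes, 5 matched the promoter table, with 6 sequences. Cish is at chr9:107296409-107296708 (plus strand), Socs3 at chr11:117969317-117969616 (minus), Socs1 at chr16:10785487-10785786 (minus) and Pias1 at chr9:62980830-62981129 (minus).
Cish: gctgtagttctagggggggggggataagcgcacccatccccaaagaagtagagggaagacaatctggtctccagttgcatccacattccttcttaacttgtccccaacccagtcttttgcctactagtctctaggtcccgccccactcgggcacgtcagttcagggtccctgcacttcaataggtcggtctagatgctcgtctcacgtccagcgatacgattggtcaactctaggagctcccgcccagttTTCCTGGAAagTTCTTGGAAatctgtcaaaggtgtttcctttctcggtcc
Socs3: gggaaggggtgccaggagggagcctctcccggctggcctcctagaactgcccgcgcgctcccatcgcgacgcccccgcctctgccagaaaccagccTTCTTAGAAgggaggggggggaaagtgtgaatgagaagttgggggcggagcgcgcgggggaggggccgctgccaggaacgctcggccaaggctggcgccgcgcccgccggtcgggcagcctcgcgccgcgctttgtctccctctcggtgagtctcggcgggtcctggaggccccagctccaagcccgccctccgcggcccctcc
Socs1: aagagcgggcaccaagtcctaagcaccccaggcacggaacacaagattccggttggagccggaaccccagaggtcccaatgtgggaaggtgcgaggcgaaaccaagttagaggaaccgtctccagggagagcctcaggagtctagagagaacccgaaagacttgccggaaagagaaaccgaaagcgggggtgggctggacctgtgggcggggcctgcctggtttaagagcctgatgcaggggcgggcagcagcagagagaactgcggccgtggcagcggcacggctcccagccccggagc
Pias1: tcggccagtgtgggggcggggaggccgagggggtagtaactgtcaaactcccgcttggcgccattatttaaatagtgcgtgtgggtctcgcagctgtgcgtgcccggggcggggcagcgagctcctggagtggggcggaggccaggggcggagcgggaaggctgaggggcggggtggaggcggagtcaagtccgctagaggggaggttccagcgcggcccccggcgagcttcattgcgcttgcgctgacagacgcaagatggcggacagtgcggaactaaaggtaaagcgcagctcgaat
Cish held 2 matches, TTCCTGGAA at the start base itself and TTCTTGGAA 11 bases further into the gene. Socs3 held 1, TTCTTAGAA, 154 bases before the start. The Socs1 and Pias1 windows and both Pias3 windows held 0. Of 32851 promoter sequences of the same length, 8.30% held at least 1 match and 0.457% at least 2. All 300 bases of each window lay inside a region of the gene in the count table, so the values below cover these bases. A match in these letters is a description and shows no binding.

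The libraries held 2697546 to 7464336 counts in the regions of the table, and the authors' peak lists held 20387 to 94906 peaks. Line 119 had the most counts and line 112 the fewest. The strongest region at the start of Stat3, the targeted gene, had 84 to 170 counts in the 4 knockout libraries and 101 to 152 in the wild-type libraries, so accessibility there did not check the labels. Start regions of 9 melanocyte genes were open in the knockout lines, where all 9 exceeded 5 CPM (library counts brought to a common total with TMM scaling). In the wild-type lines 5 of 9 did so in line 119 and 3 of 9 in line 73, and their summed level was 175 and 318 CPM in lines 112 and 113 against 102 and 131 CPM in lines 119 and 73. Dct and Mlana, defining genes of pigment cells, were at 0.534 and 0.256 CPM in line 73, whereas Mitf (39.1 CPM) and Pmel (74.6 CPM) were highest there of the 4 lines. All 5 fibroblast genes (Col1a1, Col1a2, Pdgfra, Pdgfrb and Dcn) exceeded 5 CPM in line 73, with a summed level of 137 CPM against 30.4 to 40.9 CPM in the other lines. Few start regions were listed for leukocyte (2 of 8 genes), endothelial (1 of 4) and keratinocyte (1 of 5) markers, Ptprc, Pecam1 and Krt5 having none.

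Each of the 8 genes had an open start region, the strongest region within 1 kb of its start (or of either gene end for Socs2, Socs5 and Socs6, for which no strand was at hand). The authors' lists had a peak there in all 8 libraries at all 8 genes. By contrast, only 12 of the 71 regions had a peak in every library, and 6 had one in none. Start regions therefore made up 8 of those 12. Per kb of region, their mean level over the 4 lines was highest at Socs5 (76.6 CPM per kb) and then at Pias3 (64.5), Socs6 (64.4), Socs1 (49.7), Socs3 (44.7), Cish (33.7), Socs2 (23.3) and Pias1 (20.8). Neighbours in this order overlapped in their line means. Those of Socs5 ran from 53.2 to 96.7 CPM per kb, those of Pias3 from 39.4 to 85.7 and those of Socs6 from 50.2 to 85.0, and those of Socs2 (13.7 to 31.0) overlapped both Cish (25.9 to 51.2) and Pias1 (12.4 to 24.6).

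At Cish, the STAT5-induced inhibitor, the start region (chr9:107296336-107297017) had 21.9 and 14.5 CPM in the libraries of line 112 and 23.3 and 18.9 CPM in those of line 113. It had 18.1 and 17.2 CPM in line 119 and 32.0 and 37.8 CPM in line 73. Both libraries of line 73 lay above all 6 others, while line 119 lay within the range of the knockout lines. In edgeR's quasi-likelihood test with Benjamini-Hochberg adjustment over all regions, line 73 exceeded line 119 (log2 fold change of 119 over 73 -0.98, SE 0.20, adjusted p 4.88e-05), line 112 (-0.92, SE 0.22, adjusted p 0.000367) and line 113 (-0.72, SE 0.21, adjusted p 0.00291).

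Socs3, the inhibitor most closely tied to STAT3, was likewise highest in line 73. Its start region (chr11:117968996-117969630) had 24.0 and 20.3 CPM in line 112, 26.0 and 22.0 CPM in line 113 and 22.5 and 23.1 CPM in line 119. Line 73 stood at 44.8 and 44.2 CPM, above all other libraries, and the knockout lines overlapped line 119. Line 119 over line 73 gave a log2 fold change of -0.96 (SE 0.18, adjusted p 1.19e-05) in edgeR's quasi-likelihood test, whereas line 113 over line 119 gave 0.08 (SE 0.19, adjusted p 0.742). Socs3 and Cish were the only start regions of the 8 that line 73 carried above each of the other 3 lines.

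Socs1, which restrains interferon signalling, had the highest level of any of the 71 regions, at chr16:10784906-10786806, a wide region of 1901 bp. It had 78.4 and 65.9 CPM in line 112, 112 and 111 CPM in line 113, 83.1 and 87.6 CPM in line 119, and 112 and 106 CPM in line 73. Here line 113 was level with line 73 (log2 fold change 0.03, SE 0.14, adjusted p 0.872 in edgeR), and lines 112 and 119 were lower. The Socs2 start region (chr10:95415511-95417526) had 51.2 and 44.3 CPM in line 112, 53.7 and 45.5 CPM in line 113, 27.0 and 28.4 CPM in line 119, and 73.7 and 51.4 CPM in line 73. Line 119 was the low one, below line 112 by 0.79 on the log2 scale (SE 0.18, adjusted p 0.00023, edgeR).

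Socs5 and Socs6 started in regions that were high in line 113. Socs5 (chr17:87107111-87107651) had 37.0 and 30.5 CPM in line 112, 55.7 and 48.9 CPM in line 113, 28.3 and 29.2 CPM in line 119, and 49.9 and 52.2 CPM in line 73. At Socs6 (chr18:88893937-88894624) the libraries had 42.1 and 28.6 CPM in line 112, 65.2 and 51.8 CPM in line 113, 34.3 and 34.8 CPM in line 119, and 42.5 and 55.0 CPM in line 73. In each gene both a knockout and a wild-type line were high and both kinds were low.

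Of the PIAS genes, Pias3 varied in the same way and Pias1 did not. Pias1 (chr9:62980015-62981228) had 24.9 and 31.1 CPM in line 112, 27.4 and 29.3 CPM in line 113, 15.3 and 14.9 CPM in line 119, and 33.5 and 26.1 CPM in line 73. Only line 119 stood apart, and lines 112, 113 and 73 overlapped. Pias3 (chr3:96696809-96697374) had 32.8 and 25.5 CPM in line 112, 46.7 and 50.3 CPM in line 113, 20.7 and 24.0 CPM in line 119, and 48.4 and 43.6 CPM in line 73. Its other annotated start lay in a region of its own (chr3:96696094-96696659, 24.0 CPM on average) with the same order of lines except that line 73 was highest.

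**Figure D1:**
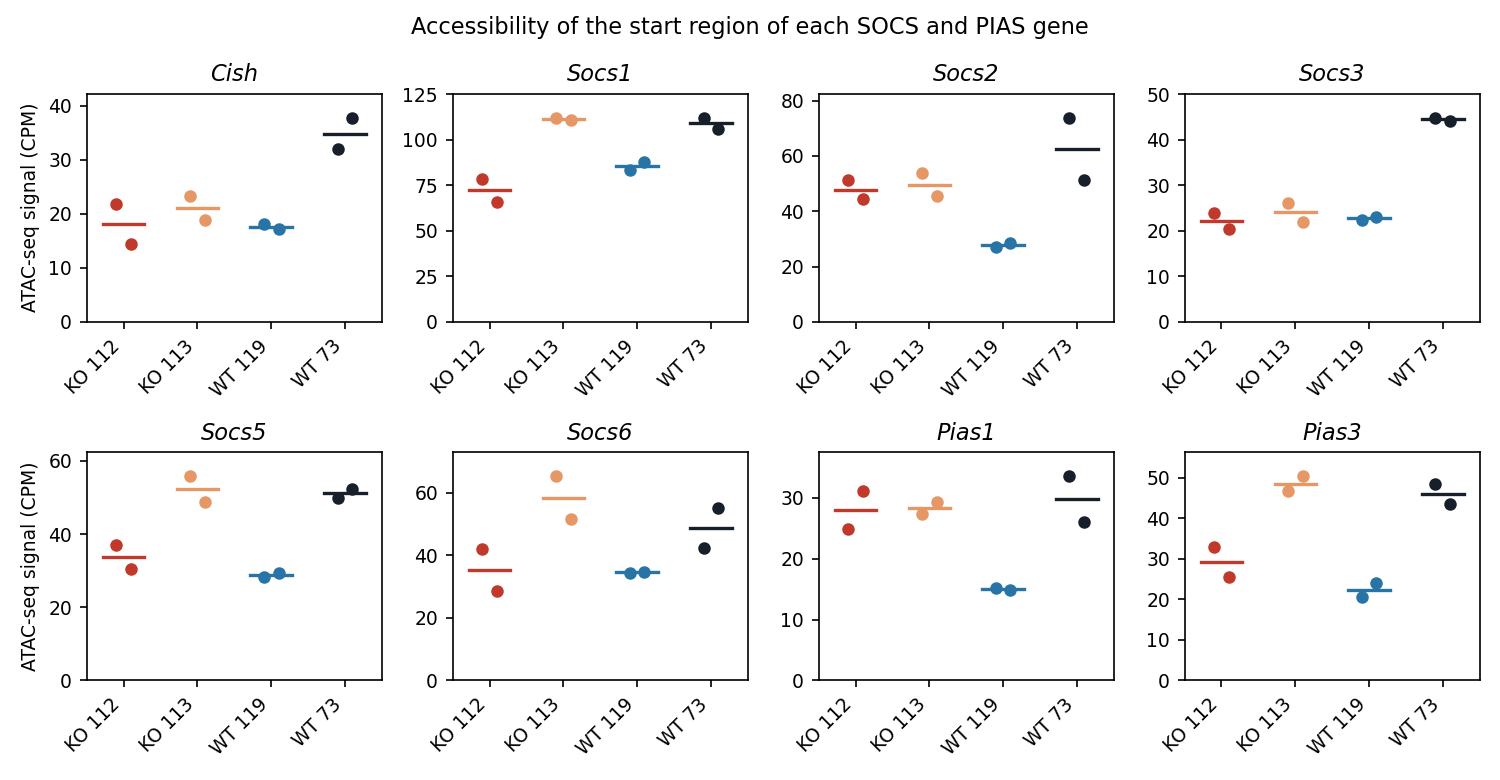
Accessibility of the start region of each gene in CPM (vertical axis, from 0) for the 4 lines (horizontal axis). Points are the 2 replicate libraries and bars their mean. Line 73 stands alone at the top for Cish (32.0 and 37.8 CPM) and Socs3 (44.8 and 44.2 CPM), and both libraries of line 119 lie below all others for Socs2, Socs5, Pias1 and Pias3.

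With lines as the units, 0 of the 13077 start regions of all genes (0%) were called between the genotypes. The 8 start regions were not called either, and a test that called no region cannot show them to be equal. Their log2 fold changes (knockout against wild type) ran from -0.53 (SE 0.64) at Socs3 and -0.40 (SE 0.66) at Cish through -0.08 at Socs1, 0.11 at Socs2, 0.12 at Socs5, 0.19 at Socs6 and 0.20 at Pias3 to 0.31 (SE 0.65) at Pias1. Socs3 had the smallest adjusted p of the 8, 0.745 (quasi-likelihood test of edgeR). The Socs3 start averaged 23.1 ± 1.34 CPM over the knockout lines and 33.7 ± 15.3 CPM over the wild-type lines (SD of line means, n = 2 lines each), and the spread of the wild-type lines came from line 73.

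Differences between lines at the start regions were those of gene starts in general. All 8 were lower in line 119 than in line 73, and of 13077 start regions of all protein-coding genes 68.3% were called lower and 8.23% higher in that pair. In line 113 over line 119, 6 of 8 were higher and 0 lower (68.2% and 9.27% of all start regions). Line 112 was below line 73 at 6 of 8 (53.6%, with 9.08% higher) and below line 113 at 4 of 8 (48.6%, with 4.81% higher). It was above line 119 at 2 of 8 (22.1%, with 10.8% lower). Line 113 was below line 73 at 2 of 8 (16.5%, with 15.1% higher), namely Cish and Socs3. With total counts in place of TMM no call turned direction, and 6 of 8 were lower in line 119 than in line 73, 3 lower in line 112 than in line 73, 1 lower in line 112 than in line 113 and 4 higher in line 112 than in line 119. The regions with a mean of at least 50 counts, scaled among themselves, turned the direction of line 112 against line 113, with 3 of 8 higher and 0 lower. Line 112 against line 119 gave 3 higher and 1 lower, and line 113 against line 119 gave 2 higher and 1 lower. In that setting line 112 was below line 73 at 2 of 8 and line 119 below line 73 at 6. The share of all start regions called was computed in the main fit only. Counts of start regions in other settings therefore have no matching background. Small counts also rested on single libraries: without replicate 2 of line 113, 1 of 8 was below line 73, without replicate 1 of line 113, 2 were above line 112, and without replicate 1 of line 119, 1 was below line 112. The share of all counts that fell in start regions moved with these directions, at 24.6% and 24.9% in line 119, 28.9% and 30.3% in line 112 and 35.3% to 35.5% in lines 113 and 73, and its part in the result was not tested.

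The start region most like each member in its pattern was sought among the 8 genes and the other pathway genes, 50 candidates per gene, by the Euclidean distance of centred log2 CPM over the 8 libraries. It was Ifngr1 for Cish (distance 0.361), Cish for Socs3 (0.374), Jak1 for Socs1 (0.385), Socs7 for Socs2 (0.346) and Ifnar1 for Socs5 (0.175). For Socs6 it was Socs5 (0.469), for Pias1 Socs7 (0.389) and for Pias3 Ptpn1 (0.284). The farthest from every one of the 8 was Stat5b, at 6.05 or more. Its start region had 2 and 0 counts in the libraries of line 119 and 101 to 137 in the other libraries.

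Line 73 stood apart over the whole set. Of the 69 regions tested, 38 (55.1%) had their highest line mean in line 73, against 31.4% of all 140329 regions. Line 73 was above each of the other 3 lines at 27 of 69 (39.1%), where 13.2% of all regions met that rule. Line 113 was above the other 3 at 4 of 69 (7.26% of all regions), line 119 at 1 (11% of all regions) and line 112 at 0 (1.76% of all regions). Among the 61 tested regions other than start regions the count for line 73 was 25 (41.0%, against 13.4% of all regions of that kind). Leaving out 1 library at a time gave 21 to 26 for line 73, total counts gave 23, and DESeq2 gave 20. With a mean of at least 50 counts it was 4 of 21 (19.0%). The share of all regions that met the rule was computed in the main fit only. The counts in these other settings therefore have no matching background. Summed over the 71 regions and without TMM, the libraries of line 73 had 1088 and 1009 CPM and the other 6 libraries 654 to 706 CPM. The raised fibroblast marker list of line 73 moved with this, and its part in the result was not tested. In a pool of cells, more cells with an open region and more opening per cell cannot be told apart.

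**Figure D2:**
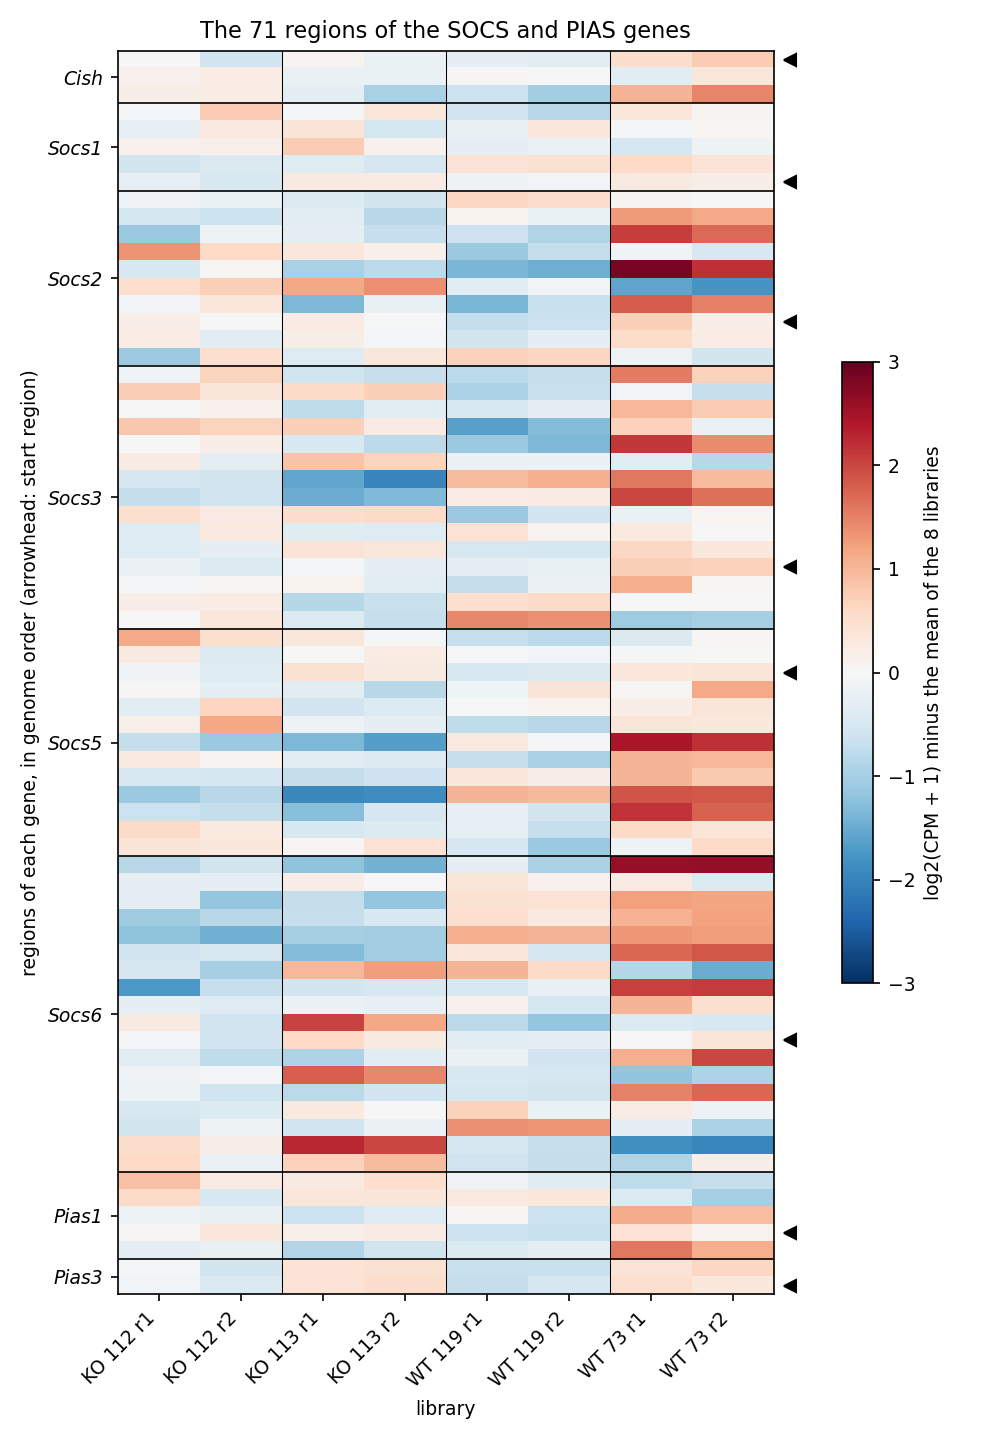
Each row is 1 of the 71 regions, grouped by gene and in genome order, and each column a library. Colour gives log2(CPM + 1) minus the mean of the 8 libraries, and arrowheads mark start regions. The columns of line 73 hold the reddest rows at Socs2, Socs3, Socs5 and Socs6, and the replicates of a line look alike.

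The share of regions called in each pair of lines followed from this. Line 119 over line 73 gave 6 higher and 42 lower of 69, against 27.5% higher and 29.4% lower of all regions. Line 112 over line 73 gave 9 higher and 36 lower (23.8% and 26.1% of all regions), and line 113 over line 73 gave 11 higher and 32 lower (25.8% and 26.5%). Pairs without line 73 were closer to the background. Line 112 over line 119 gave 22 higher and 14 lower (22.2% and 23.5%), line 113 over line 119 gave 22 higher and 15 lower (30.2% and 28.8%), and line 112 over line 113 gave 4 higher and 11 lower (8.24% and 15.6%). The direction of these 3 splits depended on the processing. Total counts gave 12 higher and 5 lower in line 112 over line 113 (22079 and 12126 of all), and moved the median of all regions from 0.08 to 0.41 on the log2 scale. With a mean of at least 50 counts, which left 21 of the 71 regions and 24137 of all, that pair gave 8 higher and 2 lower (4272 and 3197 of all). At the same minimum line 112 over line 119 gave 5 higher and 8 lower (4954 and 7033 of all), and line 113 over line 119 gave 5 higher and 8 lower (6638 and 7672 of all). DESeq2 gave 10 higher and 11 lower in line 112 over line 119 (14525 and 21762 of all). In line 112 over line 119, fewer regions were called higher without either replicate of line 119, both in this set and among all regions. Without replicate 1 of line 112, fewer regions were called higher in line 112 than in line 73, again in this set and among all regions. Leaving out replicate 1 of line 113 gave fewer calls of either direction in line 112 over line 113, in this set and among all regions. Such fits leave 1 library in a line.

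**Figure D3:**
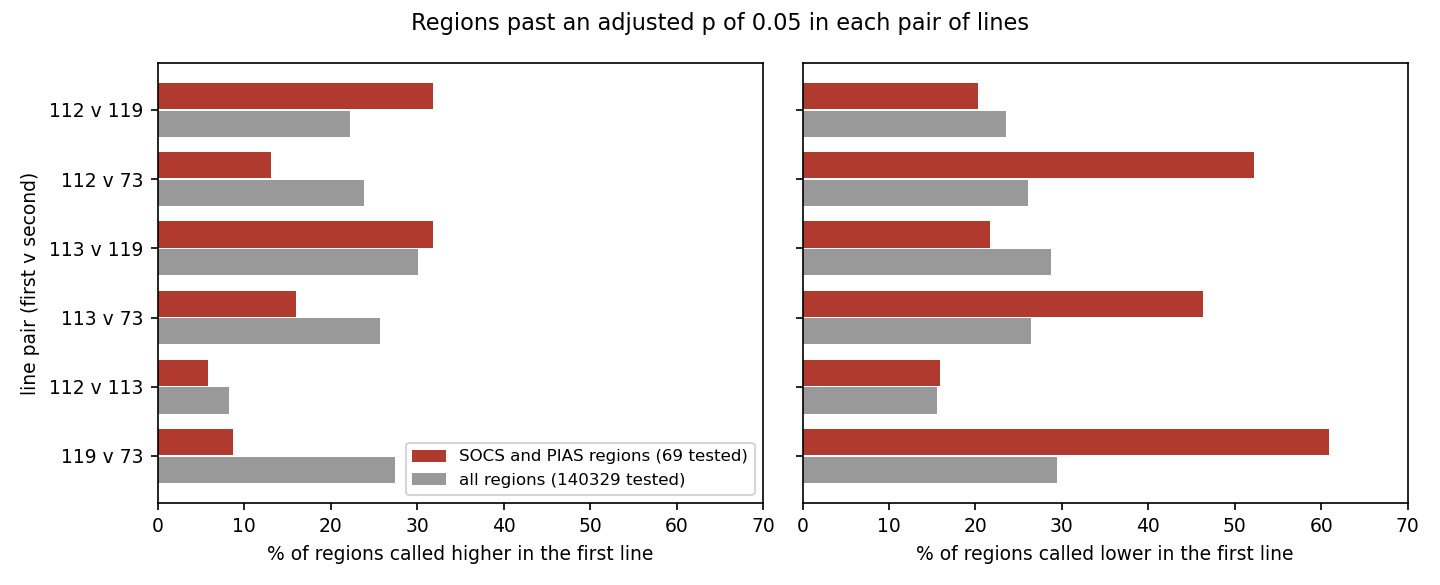
Percent of regions called higher (left) and lower (right) in the first line of each pair, for the 69 regions of the SOCS and PIAS genes (red) and all regions tested (grey). The red bars exceed the grey ones most on the right in the 3 pairs that end in line 73.

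The 27 regions above the other 3 lines in line 73 were 8 at Socs6, 6 at Socs3, 5 at Socs5, 4 at Socs2, 2 at Cish and 2 at Pias1, with 0 at Socs1 and Pias3. At Socs2, a region inside the gene (chr10:95388672-95389466), 4.8 kb from its nearer end, had 32.3 and 20.0 CPM in line 73. The other 6 libraries had 0.68 to 3.69 CPM there. The log2 fold change of line 119 over line 73 was -5.11 (adjusted p 2.55e-17 in edgeR's quasi-likelihood test). At Socs6, a region 37.8 kb from the gene (chr18:88826566-88827393) had 35.3 and 35.6 CPM in line 73 and 1.21 to 3.88 CPM elsewhere.

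Other distal regions were shared. The strongest at Socs3 that was not at its start (chr11:117963302-117963900, 2.2 kb beyond the gene) had 21.0 and 22.2 CPM in line 112, 37.2 and 34.8 CPM in line 113, 19.5 and 18.7 CPM in line 119 and 42.8 and 34.5 CPM in line 73. Its mean over the lines was 28.8 CPM, and that of the Socs3 start region 28.4 CPM. Among regions that averaged over 20 CPM the most even was one 3.9 kb from Socs5 (chr17:87102524-87103360), with 15.4 to 25.6 CPM in the 8 libraries and 0 of 6 pairs of lines called. A region 5.1 kb beyond Socs3 on its other side (chr11:117975459-117976010) was the single one that line 119 carried above the other 3, at 14.9 and 14.2 CPM against 1.79 to 6.46 CPM.

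The remaining strongest regions away from the starts were low. They had 7.42 CPM at Socs1 (7.0 kb from the gene), 7.85 CPM at Socs2 (the region inside the gene described above), 5.16 CPM at Pias1 (49.9 kb) and 4.72 CPM at Cish (9.9 kb), as means of the 4 lines. Line 73 carried the last pair at 12.2 CPM (Pias1) and 10.5 CPM (Cish), each of its libraries above all other libraries. At Socs5 and Socs6 they were much stronger, 30.2 and 22.5 CPM, and both are among the regions that follow. The highest line exceeded the lowest by a median of 1.97-fold at the 8 start regions and 5.05-fold at the 61 other tested regions, against 2.11-fold and 4.19-fold at start regions and other regions of all genes. The regions away from the starts held fewer counts, and the part of this in the wider ratios was not tested.

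**Figure D4:**
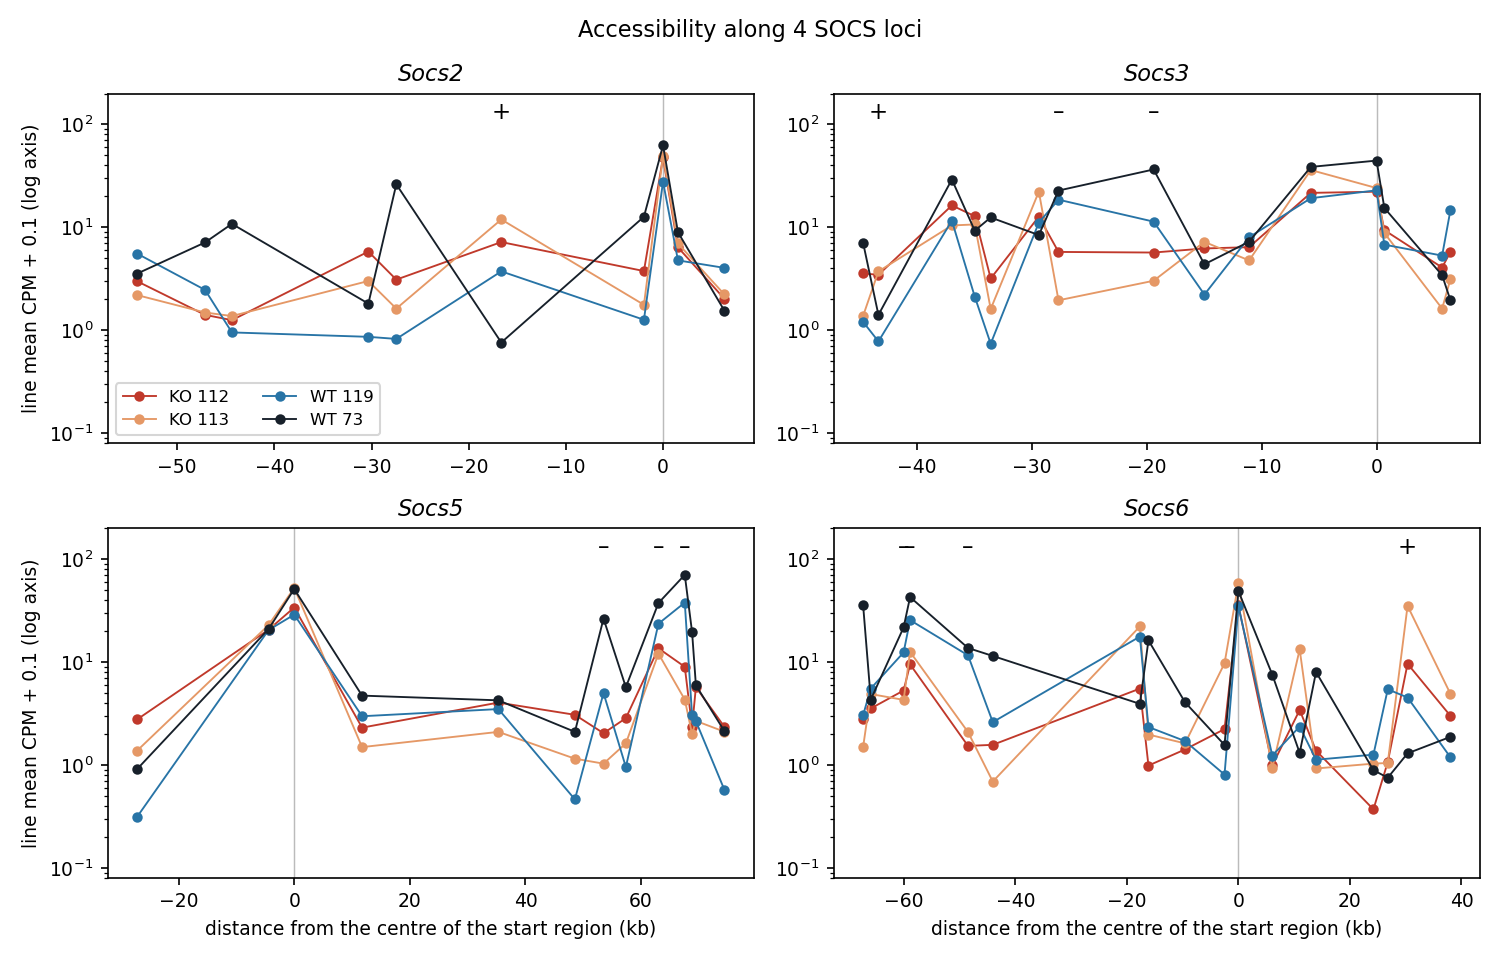
Line mean CPM + 0.1 (log axis) of each region against the distance of its centre from the centre of the start region in kb, at Socs2, Socs3, Socs5 and Socs6. Lines only join neighbouring regions, and + and – mark regions higher and lower in both knockout lines than in both wild-type lines. The highest and lowest lines are 1.70-fold to 2.26-fold apart at the start regions and mostly further apart away from them.

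The question of the design, whether accessibility differs between Stat3 genotypes, was put to all regions with counts summed per line. None of the 69 regions passed an adjusted p of 0.05 in edgeR's quasi-likelihood test, and of all 140329 regions 0 did (0%). At an unadjusted p under 0.05 there were 20 of 69, against 16.9% of all regions. The median log2 fold change was -0.40 over the 69 and -0.09 over all regions. DESeq2, which estimates the spread otherwise, called 1 of the 69 higher and 6 lower, and 3139 higher and 3847 lower among all regions. The 2 regions of smallest p in each direction were at Socs5, 36.7 and 22.9 kb from the gene, among those lower in the knockout lines, and at Socs6, 29.9 kb from the gene and inside it, among those higher.

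A description that does not depend on that test is whether each knockout line differed from each wild-type line, 4 pairs in all, with the same sign. Such separated regions numbered 12 of the 69: 3 higher in the knockout lines (4.35%, against 7.64% of all regions) and 9 lower (13.0%, against 7.41%). None was a start region, and 1 lay inside a gene. By gene they were 4 at Socs6, 3 at Socs3, 3 at Socs5, 1 at Socs2 and 1 at Socs1, with 0 at Cish, Pias1 and Pias3. Of the 12, 8 remained separated when any 1 of the 8 libraries was left out, all of them lower in the knockout lines. Line 73 was the highest line at all 9 lower regions, and line 119 lay between it and the knockout lines.

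At Socs5 the region 26.8 kb beyond the gene (chr17:87164455-87165030) was not separated, with a log2 fold change of -0.56 between the genotypes. The 3 separated regions lay on both sides of it, 22.9 to 36.7 kb beyond the gene. The strongest (chr17:87174366-87175503) had 7.91 and 9.85 CPM in line 112, 4.08 and 4.35 CPM in line 113, 38.4 and 37.0 CPM in line 119 and 71.2 and 69.2 CPM in line 73. No knockout library came near a wild-type one. Between the genotypes its log2 fold change was -3.06 (SE 0.70) and its adjusted p with lines as units 0.143, the smallest of the 69 and equal to the smallest of all regions. The region 22.9 kb away (chr17:87160509-87161255) had 2.33 and 1.54 CPM in line 112 and 1.13 and 0.73 CPM in line 113. It had 5.56 and 4.22 CPM in line 119 and 28.7 and 23.9 CPM in line 73, the highest of the lines. Between the genotypes its log2 fold change was -3.41 (SE 1.01, adjusted p 0.150, edgeR), and lines 112 and 113 over line 119 gave -1.31 and -2.37. It was not separated when replicate 1 of line 119 was left out. The third (chr17:87169890-87170874) was open in every library, from 11.6 to 13.7 CPM in the knockout lines and from 22.6 to 40.5 CPM in the wild-type lines.

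At Socs6, the separated regions at lower coordinates than the gene were lower in the knockout lines, and the separated region at higher coordinates was higher. Tested regions at higher coordinates that were not separated went both ways. At 5.7, 10.5, 13.5 and 37.7 kb from the gene their log2 fold changes between the genotypes were -2.24, 2.21, -2.01 and 1.48. The region 19.1 kb away (chr18:88845507-88846067) had 1.23 to 2.04 CPM in the 4 knockout libraries and 11.1 to 13.8 CPM in the 4 wild-type libraries, where lines 119 and 73 did not differ (log2 fold change -0.23, adjusted p 0.44, edgeR). The 2 lines of each genotype were close to each other there. Regions 29.1 kb (chr18:88834729-88836073) and 30.6 kb away (chr18:88833868-88834605) had log2 fold changes of -1.65 and -1.81. On the opposite side, 29.9 kb from the gene, chr18:88924289-88924940 was higher in the knockout lines. It had 10.7 and 8.31 CPM in line 112, 38.3 and 31.7 CPM in line 113, 4.78 and 4.05 CPM in line 119 and 1.28 and 1.11 CPM in line 73. Line 113 was well above line 112 there (log2 fold change of 112 over 113 -1.86, adjusted p 1.27e-07, edgeR), and without replicate 2 of line 119 the region was no longer separated. The region inside Socs6, 2.3 kb from its nearer end (chr18:88891540-88892040), was not separated. It had 3.03 and 1.23 CPM in line 112, 12.7 and 6.53 CPM in line 113, 0.9 and 0.51 CPM in line 119 and 1.54 and 1.39 CPM in line 73, so that line 113 alone lay above the rest and line 112 overlapped line 73.

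Socs3 had 2 lower regions on its downstream side. The one 15.8 kb from the gene (chr11:117949627-117950231) had 5.35 and 5.85 CPM in line 112, 2.72 and 3.14 CPM in line 113, 11.2 and 11.3 CPM in line 119 and 41.0 and 31.9 CPM in line 73. The one 24.1 kb away (chr11:117941377-117941938) had 5.82 and 5.54 CPM in line 112, 2.27 and 1.45 CPM in line 113, 17.6 and 19.4 CPM in line 119 and 27.9 and 17.5 CPM in line 73. Wild-type lines overlapped at the latter and were far apart at the former. Their log2 fold changes were -2.49 (SE 0.85) and -2.46 (SE 0.86), with adjusted p of 0.178 and 0.183 in edgeR. The higher region, 39.8 kb away (chr11:117925737-117926264), was weak, at 2.77 to 3.96 CPM in the knockout libraries and 0.52 to 1.79 CPM in the wild-type libraries. The authors' lists had no peak in it, and it was not separated without replicate 1 of line 112, replicate 2 of line 113 or replicate 2 of line 73, nor by DESeq2.

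Socs1 had 1 lower region, 7.0 kb beyond the gene (chr16:10776124-10776829), with 4.42 to 5.21 CPM in the knockout libraries and 9.44 to 11.01 CPM in the wild-type libraries. The lines of a genotype differed by at most 0.08 on the log2 scale, and the log2 fold change was -1.08 (SE 0.83, adjusted p 0.539, edgeR). Inside Socs2, chr10:95399590-95400159 had 6.52 and 7.69 CPM in line 112, 10.9 and 12.8 CPM in line 113, 3.23 and 4.05 CPM in line 119 and 0.77 and 0.56 CPM in line 73. Its log2 fold change was 2.08 (SE 0.95, adjusted p 0.279, edgeR). It lost its place without replicate 2 of line 112, without either replicate of line 119, and by DESeq2. Line 73 was thus the lowest line at this region. At chr10:95388672-95389466 inside the same gene line 73 was the highest, and line 119 was the lowest.

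**Figure D5:**
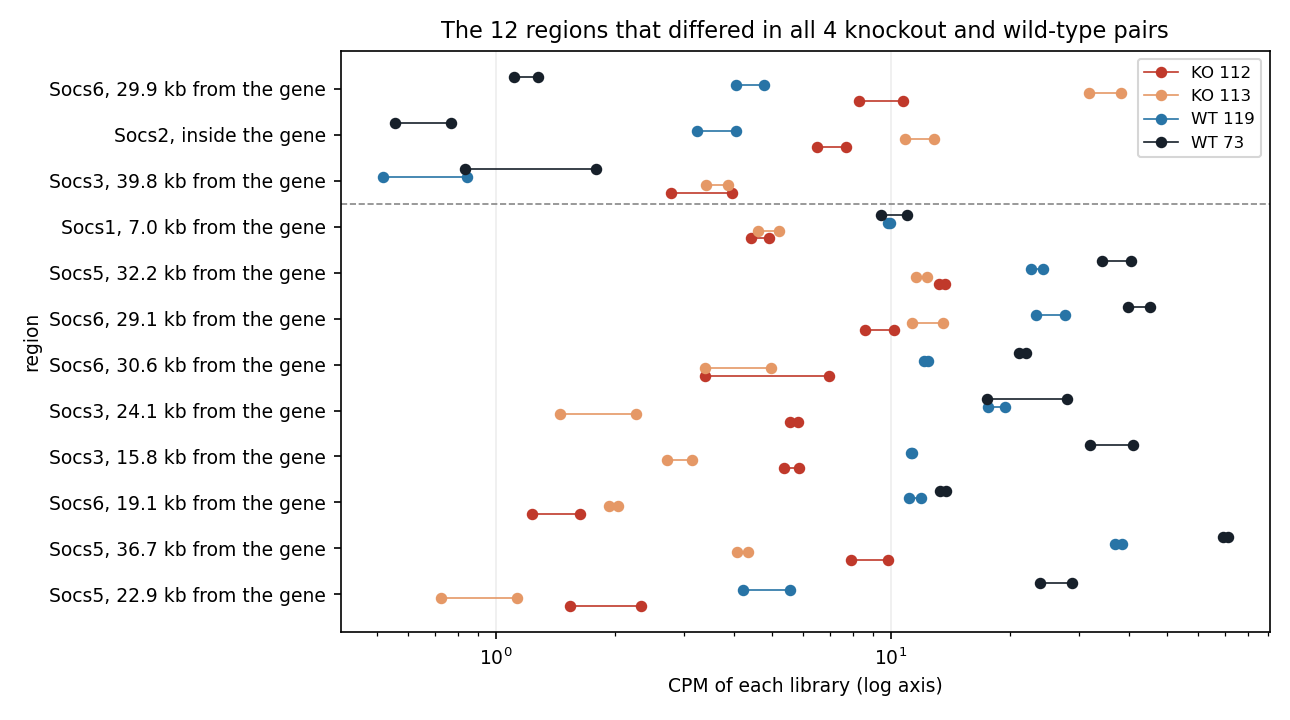
CPM of each library (log axis) at the 12 separated regions, ordered by log2 fold change, with a bar joining the replicates of a line. The 3 regions above the dashed line are higher in the knockout lines and the 9 below it lower. Black (line 73) is the outermost colour on the wild-type side at 11 of 12.

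A gain or loss of a chromosome part would shift neighbouring regions together. The counts in the 10 Mb around each gene, relative to the mean of the 4 lines, differed between lines by -0.31 to 0.24 on the log2 scale. Taking that out left 3 higher and 9 lower separated regions, the same ones. It raised the regions higher in line 119 than in line 73 from 6 to 11, while all regions went from 38552 to 37430. It left 23 of 69 above the other 3 lines in line 73, a count not made for all regions in that setting.

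Other genes of the pathway, listed without regard to how they moved, were treated by the same rule. Among 12 other inhibitors (including Socs4, Socs7, Pias2, Pias4 and the phosphatase genes Ptpn1 and Ptpn2), 3 of 79 tested regions were separated and higher in the knockout lines and 2 lower. For 11 STATs and Janus kinases it was 12 higher and 6 lower of 96, for 16 cytokine receptors 7 higher and 16 lower of 121, and for 10 early STAT target genes 1 higher and 5 lower of 85. List by list, these were 3.80% and 2.53%, 12.5% and 6.25%, 5.79% and 13.2%, and 1.18% and 5.88%. All regions gave 7.64% and 7.41%. The 8 genes gave 4.35% and 13.0%, a share of lower regions that the cytokine receptors matched. Of the 12 higher STAT and kinase regions, 1 was at Stat5a and 2 at Stat5b, where line 119 had almost no counts. Line 73 was above the other 3 lines at 8.86%, 13.5%, 29.8% and 15.3% of the regions of these lists, in the same order, against 39.1% for the 8 genes and 13.2% for all regions.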

How the data were processed

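ATAC-seq libraries of 4 lines, 8 in all, were analysed. The authors deposited raw counts per region for all 8 libraries in a table with 0 columns of other samples, and a peak list per library. In those lists each peak's fold enrichment (a ratio) and −log10 q are the authors' values as deposited and were used to find peaks only. Bowtie2 2.2.4, Picard 1.118, MACS2 2.1.1.20160309 and the builds mm10 and GRCm38 are named, without roles, per the submitters' processing notes. How reads were counted, shifted or deduplicated is not given in the sources used here, so counts may hold PCR duplicates. Fragments over 1200 bp had been removed, per the labels' protocols.

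Genes were placed with RefSeq GRCm38.p6 (21887 protein-coding genes), and coordinates are counted from 1. Low counts were removed by edgeR's filterByExpr on line sums, at a minimum count of 10 and a minimum total of 15, and 140329 regions stayed. Counts were scaled by TMM and tested with edgeR 4.0.16 (R 4.3.3; robust glmQLFit, glmQLFTest, two-sided), with counts summed per line for the genotype and with a mean per line in the 8-library fit for pairs of lines. P-values were adjusted by Benjamini-Hochberg over all regions, at 0.05. Standard errors (SE) are the absolute log2 fold change over the root of F. Peak overlap needed 1 bp (bedtools 2.31.1). The scripts were tested on simulated data.

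Regions were named by rule: each start region, the strongest region away from it, every separated region, and with lines as units the 2 of smallest p in each direction. Others (the even region near Socs5, the region above the other lines in line 119, and the region 37.8 kb from Socs6) were chosen after their values were seen, as was the count of regions above the other 3 lines. The members and gene lists were chosen with earlier results of these data known. Replicates of a line differed beyond counting noise (chi-square per degree of freedom 1.07 in line 119 to 1.98 in line 112). Alternatives were other scalings, filters, DESeq2 1.42.0, libraries as units, a replicate block, other distances and leaving out each library.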

Additional observations from a re-analysis of the deposited data

How the results depend on the processing

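Log2 fold changes of the 8 start regions and 12 separated regions kept their sign under all alternatives run, except that of the Socs2 start region, which ran from -0.026 (without replicate 2 of line 73) to 0.298 over left-out libraries. With lines as units the count of regions called was 0 under the other scalings, filters and left-out libraries (0 to 0), but 1 higher and 6 lower by DESeq2. Fits with libraries as units ignored the line and took the libraries of a line as independent. They gave 8 higher and 14 lower (15904 and 15911 of all 140329 regions). With a replicate block added they gave 5 higher and 10 lower (12244 and 11980 of all). Replicate numbers are shared between lines but pair nothing: deviations of same-numbered libraries correlated by -0.037 to 0.0039, and the block moved no count of the line pairs or of separated regions by over 1.5 times. Separated regions numbered 1 higher with a mean of at least 50 counts and 1 higher by DESeq2. DESeq2 lost none of the lower regions of the main fit. The stricter filter removed the lower ones at Socs1, 22.9 kb from Socs5 and 19.1 kb from Socs6 before testing. The rest of the lower ones stayed separated. The share of all regions separated in these settings is not given here. There were 1 higher and 1 lower within 10 kb, and 1 higher and 0 lower inside the genes. Leaving out 1 library gave 1 to 3 higher and 8 to 10 lower. A mean of at least 50 counts left 21 regions (24137 of all), with 5 higher and 8 lower in line 112 over 119 (4954 and 7033 of all), 4 and 8 in 112 over 73 (7240 and 6609), 5 and 8 in 113 over 119 (6638 and 7672), 3 and 10 in 113 over 73 (7380 and 6984), 8 and 2 in 112 over 113 (4272 and 3197), and 11 lower in 119 over 73 (7004). DESeq2 gave 10 higher and 11 lower in 112 over 119 (14525 and 21762 of all). It gave 5 higher in 112 over 73 (21755 of all), 6 higher in 113 over 73 (28067) and 2 higher in 112 over 113 (3387). Its lower calls in these 3 pairs were 5 at start regions and 25 elsewhere (25547 of all), 2 and 26 (26471), and 4 and 6 (13085). Total counts gave 12 higher and 5 lower in 112 over 113 (22079 and 12126 of all), and the regional offset 11 higher in 119 over 73 (37430 of all). Over left-out libraries the counts ran from 12 to 22 higher and 10 to 13 lower in 112 over 119, 3 to 10 and 31 to 35 in 112 over 73, 17 to 22 and 13 to 16 in 113 over 119, 8 to 13 and 28 to 35 in 113 over 73, 1 to 5 and 6 to 11 in 112 over 113, and 4 to 9 and 32 to 42 in 119 over 73. Calls among all regions also moved with the library left out. The cause was not tested, beyond that fewer regions were tested under the stricter filter. Most regions away from the starts held few counts, which limits the size of difference that could be called.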

Other observations

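Stat5a and Stat5b, whose products induce Cish and Socs2, had almost no counts in line 119, at their starts and at their other regions alike. This pattern was looked up after their values were seen. Absent DNA and closed chromatin cannot be told apart from these counts. Over the 9 regions of these 2 neighbouring genes the libraries of line 119 had 2 and 0 counts, where a count of 0 allows up to 3 counts (0.507 CPM in replicate 2). The other 6 libraries had 249 to 334 counts there. In the same line the start regions of Cish (18.1 and 17.2 CPM) and Socs2 (27.0 and 28.4 CPM) were open, Cish within the range of the knockout lines and Socs2 below them.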
